A study of Mus musculus with 20 samples.

Results

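Genes of mature neutrophils and of acute inflammation, 10 in all, were followed through the sorted cells of the mouse olfactory mucosa: the alarmin genes S100a8 and S100a9, Retnlg, the receptor genes Cxcr2, Csf3r and Trem1, the integrin gene Itgam, and the cytokine genes Il1b, Tnf and Cxcl2. They were chosen by name, with earlier results of these data known, as the probe sets annotated to these symbols. All 10 genes were found, each with 1 probe set, so they make up 10 of 19505 named genes and 10 of the 22206 gene probe sets measured. In every pool 9 of the 10 genes were lower in GFP+ cells than in the GFP- cells of the same mice, and the last, Cxcl2, was lower in 9 of 10 pools. S100a8, S100a9 and Retnlg were among the bright signals of the GFP- fraction, whereas Cxcl2 and Tnf were near the background there on most arrays. No change with the odor passed the test for any of the 10 genes.

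All animals carried the S100a5-tauGFP reporter, in which green fluorescent protein (GFP) marks cells by S100a5, a calcium-binding protein gene that olfactory sensory neurons transcribe when they are active. The groups were GFP+ and GFP- cells of mice given an artificial cigarette smoke odor and GFP+ and GFP- cells of mice given filtered air as vehicle, with 5 samples in each of the 4 groups. The 30 mice, of both sexes and aged 7 to 12 weeks, were each housed in a chamber for 40 h at an air flow of 3.1 L/min and, from 26 h on, received pulses of 10 s every 20 min. The tissue of 3 mice was pooled before dissociation and sorting, so a sample is a pool and both fractions of a pool come from the same mice. The sample labels name the smoke odor, which is followed here, while the design text names bourgeonal. GFP- cells are all sorted cells without the reporter signal, neurons and other cells alike, and the labels name no other marker for the sort.

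Neutrophils are short-lived white blood cells that leave the bone marrow under the control of granulocyte colony-stimulating factor and of chemokines, and reach tissue along chemokine gradients. S100A8 and S100A9 form calprotectin, the main calcium-binding complex of their cytosol, which acts as an alarmin on Toll-like receptors once released. Interleukin 1 beta, tumour necrosis factor and the chemokine CXCL2 are made by stimulated neutrophils, monocytes and macrophages and bring in further neutrophils through CXCR2. In the healthy olfactory mucosa such cells are few, and they enter in numbers during infection or injury.

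Signals come from Clariom S arrays, 1 for each sample, on a log2 scale, and the number of arrays limits the precision. The signal of 1 probe set is not compared with that of another gene as an amount of RNA. On each array 23 control probe sets measure background, and their medians ranged from 5.14 to 6.34. The 4 arrays of replicate 5, 1 in each group, stood apart with median gene signals of 7.03 to 7.46, against 6.06 to 6.39 on the other 16 arrays. Among those 16, odor GFP- 2, vehicle GFP+ 2 and vehicle GFP- 1 correlated least with their groups, the last at a mean r of 0.895. They are called the 3 least correlated arrays below, although some arrays of replicate 5 had a lower mean r than odor GFP- 2. Test results that rest on these 3 arrays or on replicate 5 are given with and without them. Correlations between genes are given with and without replicate 5 only. S100a5 itself was higher in GFP+ cells by 2.15 on the log2 scale in odor pools (adjusted p = 0.00131 by limma) and by 1.30 in vehicle pools (adjusted p = 0.0368 by limma). Of the 10 listed genes of mature olfactory sensory neurons none passed the test between the fractions in either condition, and Omp, the olfactory marker protein gene, was at 19.2 ± 0.55 in odor GFP- cells and 18.95 ± 0.70 in vehicle GFP- cells (SD, n = 5 each).

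**Figure D1:**
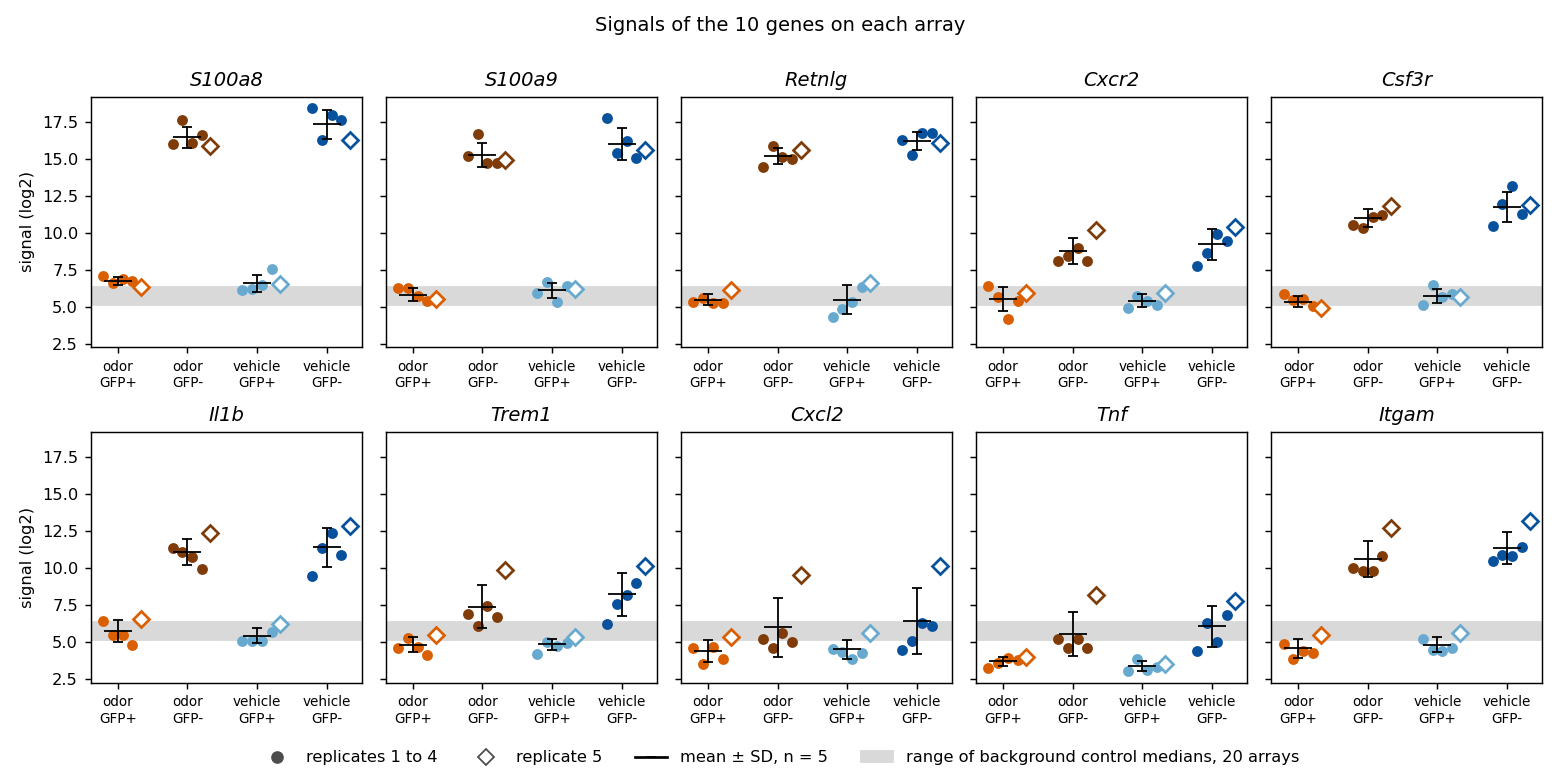
Log2 signal of each of the 10 genes (panels) on each array of the 4 groups, with the mean and SD of 5 samples as black bars and the span of the background medians, 5.14 to 6.34, in grey. The arrays of replicate 5 are open diamonds. GFP+ signals lie in, near or below the grey band for all 10 genes, and those of Tnf, at 3.06 to 4.00, lie below it on every array. The diamonds of Cxcl2 in GFP- cells, at 9.52 in the odor group and 10.14 in the vehicle group, lie far above the other arrays.

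The sort was tested first, as the difference GFP+ minus GFP- within each pool. In odor pools 9 of the 10 genes were lower in GFP+ cells with an adjusted p under 0.05 by limma, where 5.82% of all probe sets were called lower and 2.07% higher. In vehicle pools 9 of the 10 were called lower as well, where 6.86% of all probe sets were called lower and 2.26% higher. The median log2 change of the 10 genes was -5.50 in odor pools and -5.99 in vehicle pools, while the median over all probe sets was 0.08 and 0.09. For 9 genes every GFP+ array lay below every GFP- array of its condition, an ordering that 4.02% of all probe sets showed among odor arrays and 3.91% among vehicle arrays. Over all 20 arrays together 2.59% of probe sets had every GFP+ array below every GFP- array, and so had 9 of the 10 genes. In bulk samples like these, fewer cells of a type and less RNA per cell cannot be told apart. In GFP+ cells the signals of 9 genes were below the brightest background control of their own array on 10 of 10 arrays, and that of S100a8 on 8 of 10, so background limits the size of the changes and their order in size is not measured.

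The alarmin pair S100a8 and S100a9 lay far apart between the fractions. S100a8 had signals of 7.11, 6.62, 6.86, 6.77 and 6.35 in GFP+ cells of odor pools 1 to 5, against 16.04, 17.64, 16.04, 16.64 and 15.86 in their GFP- cells. In vehicle pools 1 to 5 it had 6.11, 6.21, 6.49, 7.57 and 6.54 in GFP+ cells, against 18.43, 16.30, 17.98, 17.65 and 16.25 in GFP- cells. All GFP+ arrays were thus low, all GFP- arrays were bright, and the fractions did not overlap. The log2 change was -9.70 in odor pools (SE 0.38, adjusted p = 2.8e-09 by limma) and -10.74 in vehicle pools (SE 0.38, adjusted p = 1.1e-09). On the array vehicle GFP- 1 the S100a8 signal was 0.50 below the brightest gene probe set, where signals may be compressed.

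S100a9 had 6.28, 6.26, 5.72, 5.38 and 5.54 in GFP+ cells of odor pools 1 to 5, against 15.19, 16.69, 14.75, 14.74 and 14.89 in GFP- cells. Its vehicle signals were 5.93, 6.68, 5.34, 6.43 and 6.20 in GFP+ cells, against 17.74, 15.41, 16.22, 15.04 and 15.61 in GFP- cells. The separation matched that of S100a8 in kind, with no overlap between the fractions. The log2 change was -9.42 in odor pools (SE 0.41, adjusted p = 8.3e-09 by limma) and -9.89 in vehicle pools (SE 0.41, adjusted p = 4.1e-09).

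S100a8 and S100a9 are neighbours on mouse chromosome 3, the chromosome that also holds S100a5, the gene of the reporter, which lies between S100a4 and S100a6. The 250 bases before the annotated start of each alarmin gene are shown because these neighbours moved together between the fractions, in the direction opposite to S100a5. They were read from RefSeq promoter windows of build GRCm38.p6, with S100a8 at chr3:90668821-90669070 on the plus strand and S100a9 at chr3:90695722-90695971 on the minus strand, each 5′ to 3′. Capitals mark matches on either strand to the TATA box TATAAA and to TTNNGNAA, a degenerate form of sites of the C/EBP factors that act in myeloid cells.
S100a8: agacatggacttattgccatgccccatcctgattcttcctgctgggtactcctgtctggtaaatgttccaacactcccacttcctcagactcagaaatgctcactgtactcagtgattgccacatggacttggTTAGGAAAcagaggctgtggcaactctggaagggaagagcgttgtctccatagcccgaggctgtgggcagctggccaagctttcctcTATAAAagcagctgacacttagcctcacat
S100a9: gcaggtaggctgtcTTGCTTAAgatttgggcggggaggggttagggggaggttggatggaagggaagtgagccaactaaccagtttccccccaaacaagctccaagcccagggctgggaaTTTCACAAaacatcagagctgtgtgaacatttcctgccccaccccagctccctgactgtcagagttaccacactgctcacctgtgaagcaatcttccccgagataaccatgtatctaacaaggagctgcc
The S100a8 window holds TATAAA and 1 match to TTNNGNAA, and the S100a9 window holds 2 matches to TTNNGNAA. Among all 32851 windows of the same length, 12.4% held TATAAA and 36.8% held TTNNGNAA on either strand, and among the 10 genes 3 and 8 held them. These are matches of letters, and no binding was measured.

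Other genes of the S100 family did not share this pattern as a group. Of 13 measured, 2 fell and 1 rose in GFP+ cells of odor pools, and 4 fell and 1 rose in those of vehicle pools, the riser being S100a5 in both. S100a11 fell by 6.67 on the log2 scale in odor pools and by 7.35 in vehicle pools. S100a6, next to S100a5 in the genome, fell by 1.52 in odor pools and by 2.02 in vehicle pools. S100a10, whose product binds annexin A2, and S100a4 did not pass in odor pools, at -0.93 and -1.01, and fell in vehicle pools, at -1.52 and -1.16. The difference between the conditions did not pass the test for either. The family's median change was 0.23 in odor pools and 0.13 in vehicle pools. Among 12 genes of alarmin receptors and Toll-like receptor signalling, 4 fell in odor pools and 6 in vehicle pools. They include Irak3, an inhibitor of the pathway, at -2.65 in odor pools and -2.91 in vehicle pools, and Tlr2 at -2.08 in odor pools and -1.66 in vehicle pools. Ager, which encodes the RAGE receptor, did not pass, at 0.50 in odor pools and 0.00 in vehicle pools.

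Retnlg encodes resistin-like gamma, a small secreted protein found in mouse bone marrow and neutrophils. It had 5.31, 5.59, 5.23, 5.24 and 6.11 in GFP+ cells of odor pools, against 14.47, 15.85, 15.11, 14.98 and 15.62 in GFP- cells. In vehicle pools it had 4.30, 4.87, 5.36, 6.35 and 6.60 in GFP+ cells, against 16.30, 15.25, 16.73, 16.72 and 16.06 in GFP- cells. The fractions did not overlap, and the log2 change was -9.71 in odor pools (SE 0.31, adjusted p = 7.2e-10 by limma) and -10.72 in vehicle pools (SE 0.31, adjusted p = 3.8e-10). None of the other 3 measured members of the resistin family passed the test in either condition. Retnla, its neighbour on chromosome 16, changed by 0.07 in odor pools and 0.21 in vehicle pools with GFP- signals of 2.99 to 3.85 in odor pools and 2.91 to 3.34 in vehicle pools, under the background medians.

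Of the receptors, Csf3r encodes the receptor for granulocyte colony-stimulating factor and Cxcr2 the main chemokine receptor that guides neutrophils. Csf3r had 5.86, 5.44, 5.53, 5.03 and 4.94 in GFP+ cells of odor pools, against 10.54, 10.32, 11.05, 11.24 and 11.84 in GFP- cells. In vehicle pools Csf3r had 5.13, 6.47, 5.67, 5.86 and 5.67 in GFP+ cells, against 10.49, 11.96, 13.17, 11.27 and 11.88 in GFP- cells. Its signal was clear of background on every GFP- array, and the log2 change was -5.64 in odor pools (SE 0.36, adjusted p = 2.8e-07 by limma) and -5.99 in vehicle pools (SE 0.36, adjusted p = 1.3e-07). Its ligand gene Csf3 did not pass the test, at -0.28 in odor pools and 0.04 in vehicle pools, with no GFP- signal above 5.39. Of 11 measured genes of the colony-stimulating factors and their signalling, 3 fell in odor pools and 3 in vehicle pools. These were Csf1r, the receptor of monocytes and macrophages, at -2.81 in odor pools and -2.61 in vehicle pools, Csf2ra at -2.38 in odor pools and -2.89 in vehicle pools, and Csf2rb, the shared beta chain, at -1.37 in odor pools and -1.38 in vehicle pools.

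Cxcr2 had 6.39, 5.67, 4.20, 5.43 and 5.94 in GFP+ cells of odor pools, against 8.11, 8.47, 8.95, 8.13 and 10.18 in GFP- cells. The vehicle signals were 4.91, 5.75, 5.41, 5.11 and 5.92 in GFP+ cells, against 7.76, 8.63, 9.92, 9.44 and 10.39 in GFP- cells. Replicate 5 was the highest GFP- array in each condition, and the array vehicle GFP- 1 was the lowest. After quantile normalization the arrays of replicate 5 were at 8.70 and 9.01, within the range of the other GFP- arrays, 8.40 to 10.37. The log2 change was -3.24 in odor pools (SE 0.41, adjusted p = 0.00013 by limma) and -3.81 in vehicle pools (SE 0.41, adjusted p = 2.8e-05). Cxcl1, Cxcl3, Cxcl5 and Ppbp, which encode ligands of this receptor, did not pass the test in either condition. In the list of CXCR2 ligands and related chemokines 2 of 11 measured genes fell in each condition: Cxcr4, the receptor that holds neutrophils in the marrow, at -5.17 in odor pools and -5.11 in vehicle pools, and Ccl3, a chemokine of myeloid cells, at -2.25 in odor pools and -2.99 in vehicle pools.

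Itgam encodes CD11b, the alpha chain of the integrin Mac-1 of neutrophils, monocytes and macrophages. It had 4.89, 3.85, 4.40, 4.27 and 5.50 in GFP+ cells of odor pools, against 10.04, 9.78, 9.80, 10.82 and 12.72 in GFP- cells. Vehicle pools gave 5.19, 4.46, 4.39, 4.58 and 5.59 in GFP+ cells, against 10.48, 10.88, 10.81, 11.43 and 13.22 in GFP- cells. Within GFP- cells the arrays of replicate 5 were the highest in each condition, and every GFP- array was above every GFP+ array. The log2 change was -6.05 in odor pools (SE 0.34, adjusted p = 8.9e-08 by limma) and -6.52 in vehicle pools (SE 0.34, adjusted p = 4.1e-08). Itgb2, the beta chain that pairs with it, fell by 3.92 in odor pools and by 3.94 in vehicle pools. Of 11 measured genes of leukocyte integrins and adhesion 6 fell in each condition, among them Selplg, the ligand of P-selectin on leukocytes, at -4.74 in odor pools and -4.90 in vehicle pools, and Fermt3, the activator of integrins in blood cells, at -2.77 in odor pools and -3.03 in vehicle pools.

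Trem1 encodes a receptor that amplifies inflammatory signals in neutrophils and monocytes through the adaptor Tyrobp. It had 4.64, 5.29, 4.66, 4.16 and 5.46 in GFP+ cells of odor pools, against 6.89, 6.08, 7.47, 6.72 and 9.87 in GFP- cells. In vehicle pools it had 4.24, 5.02, 4.73, 4.93 and 5.33 in GFP+ cells, against 6.26, 7.57, 8.21, 9.01 and 10.12 in GFP- cells. Even in GFP- cells it was under the brightest background control on 5 of 10 arrays, and replicate 5 was again the highest in each condition. The log2 change was -2.56 in odor pools (SE 0.46, adjusted p = 0.00212 by limma) and -3.38 in vehicle pools (SE 0.46, adjusted p = 0.0002). Of 14 measured genes of TREM and immunoreceptor signalling 10 fell in odor pools and 12 in vehicle pools. Tyrobp was at -3.64 in odor pools and -4.27 in vehicle pools, and Fcer1g, the gamma chain of Fc receptors, at -5.06 in odor pools and -5.50 in vehicle pools. Pglyrp1, a peptidoglycan-binding protein of neutrophil granules, was at -4.15 in odor pools and -5.39 in vehicle pools. Trem2, the receptor of tissue macrophages, did not pass, at -0.33 in odor pools and -0.16 in vehicle pools.

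**Figure D2:**
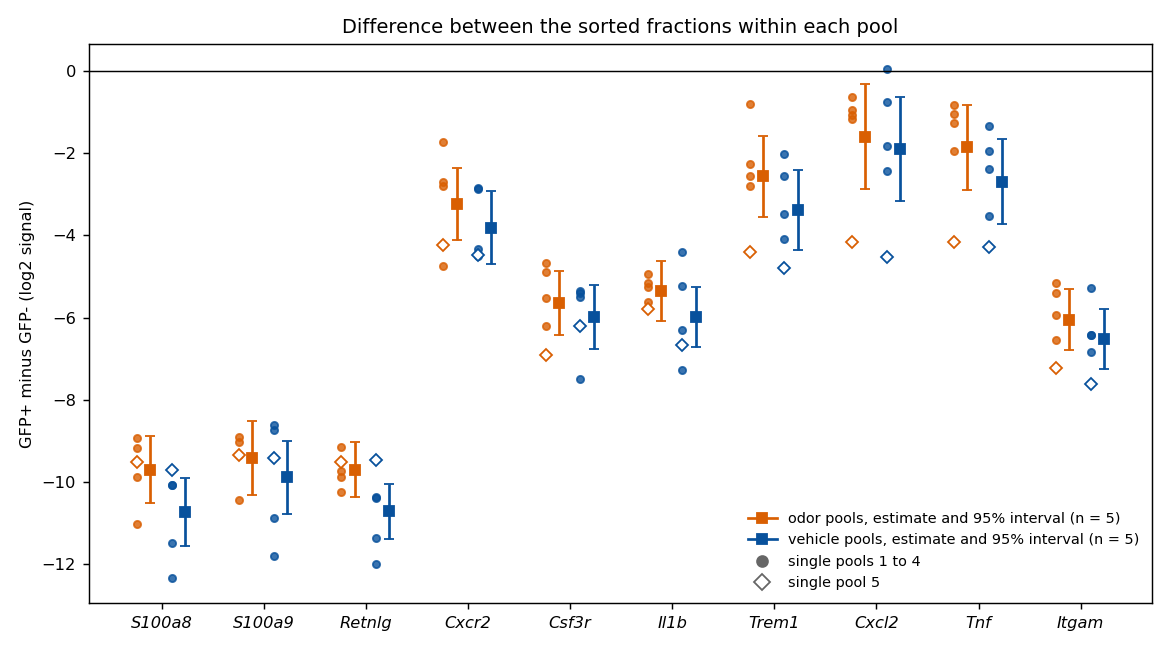
Difference GFP+ minus GFP- in log2 signal within each pool (round points for pools 1 to 4, diamonds for pool 5) for the 10 genes, with the limma estimate and its 95% interval as squares and bars, odor pools left of vehicle pools. All points but the Cxcl2 point of vehicle pool 1, at 0.04, lie below 0, and the pool 5 diamonds of Cxcl2, at -4.16 and -4.53, lie far below the other pools.

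Among the cytokines only Il1b, the interleukin 1 beta gene, was well above background on every GFP- array. It had 6.40, 5.47, 5.48, 4.79 and 6.57 in GFP+ cells of odor pools, against 11.34, 11.09, 10.75, 9.96 and 12.36 in GFP- cells. In vehicle pools it had 5.09, 5.07, 5.11, 5.69 and 6.20 in GFP+ cells, against 9.50, 11.38, 12.40, 10.91 and 12.88 in GFP- cells. The fractions did not overlap, and the log2 change was -5.36 in odor pools (SE 0.34, adjusted p = 2.7e-07 by limma) and -5.98 in vehicle pools (SE 0.34, adjusted p = 8.6e-08). Among 11 measured genes of interleukin 1 and the inflammasome 3 fell and 1 rose in odor pools, and 5 fell and 1 rose in vehicle pools. The 2 natural brakes on interleukin 1 fell in both conditions: the decoy receptor Il1r2 was at -1.63 in odor pools and -2.02 in vehicle pools, and the receptor antagonist Il1rn at -1.53 in odor pools and -1.96 in vehicle pools. Casp1, which cuts the interleukin 1 beta precursor, was at -1.67 in odor pools and -1.68 in vehicle pools. Il18, a cytokine that the same protease matures, was the gene that rose, by 0.87 in odor pools and 0.68 in vehicle pools. Il1a, next to Il1b on chromosome 2, did not pass, at -0.38 in odor pools and -1.10 in vehicle pools.

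Tnf, the tumour necrosis factor gene, had 3.28, 3.60, 3.96, 3.80 and 4.00 in GFP+ cells of odor pools, against 5.23, 4.64, 5.23, 4.63 and 8.17 in GFP- cells. In vehicle pools it had 3.06, 3.89, 3.11, 3.30 and 3.52 in GFP+ cells, against 4.39, 6.28, 5.05, 6.83 and 7.79 in GFP- cells. The signal was under the brightest background control on 9 of 10 GFP- arrays, so these are low signals in both fractions, with the GFP- array of replicate 5 on top in each condition. The log2 change was -1.85 in odor pools (SE 0.48, adjusted p = 0.0285 by limma) and -2.69 in vehicle pools (SE 0.48, adjusted p = 0.00188). The call in vehicle pools held in all 17 alternatives that gave a value. That in odor pools held in 12 of 17, over which the adjusted p ranged from 0.00135 to 0.127. It was lost without both pools numbered 5 (-1.27, adjusted p = 0.0637), without odor replicate 5 alone (-1.27, adjusted p = 0.127), without odor replicate 1 (-1.83, adjusted p = 0.0924), without odor replicate 3 (-1.998, adjusted p = 0.0576) and with the fractions unpaired (-1.85, adjusted p = 0.113). Among 8 measured genes of tumour necrosis factor signalling 3 fell in odor pools and 4 in vehicle pools. Tnfrsf1a, the widely expressed receptor, was at -3.89 in odor pools and -4.19 in vehicle pools, and Birc3, an inhibitor of apoptosis in that pathway, at -2.87 in odor pools and -3.12 in vehicle pools. Tnf lies between Ltb and Lta on chromosome 17, and Lta did not pass in either condition.

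Cxcl2, the chemokine that acts on CXCR2, had the pattern with the strongest mark of 1 replicate number. It had 4.59, 3.56, 4.69, 3.85 and 5.36 in GFP+ cells of odor pools, against 5.22, 4.62, 5.64, 5.02 and 9.52 in GFP- cells. In vehicle pools it had 4.52, 4.34, 3.87, 4.29 and 5.61 in GFP+ cells, against 4.48, 5.11, 6.31, 6.13 and 10.14 in GFP- cells. On the 8 GFP- arrays of replicates 1 to 4 it was under the brightest background control, and the fractions overlapped in each condition. The log2 change of -1.60 in odor pools (SE 0.59, adjusted p = 0.159 by limma) and of -1.91 in vehicle pools (SE 0.59, adjusted p = 0.0649 by limma) did not pass the test. Without both pools numbered 5 these were -0.95 (adjusted p = 0.246) and -1.25 (adjusted p = 0.0764). Over the alternatives the adjusted p ran from 0.00454 to 0.82 in odor pools, where 1 of 18 gave a call, and from 0.00106 to 0.457 in vehicle pools, where 6 of 18 did. The calls came with a term for the arrays of replicate 5, in both conditions, and in vehicle pools also with quantile normalization, without the pools of the 3 least correlated arrays (-2.94), without vehicle replicate 1 (-2.39), without vehicle replicate 2 (-2.19) and without odor replicate 5 (-1.91). In pool 1 of the vehicle group the signal differed by 0.04 between the fractions. Its neighbour Cxcl1 differed by 0.13 in odor pools and -0.04 in vehicle pools.

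The 10 genes differed in how far the arrays of replicate 5 stood from the others. In GFP- cells Cxcl2 was 4.52 higher on these 2 arrays than on the other 8, Trem1 2.72, Tnf 2.70 and Itgam 2.46 higher, whereas S100a9 was 0.47 lower and S100a8 1.04 lower. The median over all probe sets was a gain of 0.94, and it depended on the level: 0.31 for probe sets with a mean of at least 14 on the other arrays, 1.71 for those at 9 to 12 and 0.56 for those at 5 to 6. A gain as large as that of Cxcl2 was seen in 0.018% of all probe sets, and one as large as that of Trem1, Tnf and Itgam in 3.54%, 3.78% and 6.79%. In GFP+ cells the gain of Cxcl2 was 1.27, a size reached by 35.1% of probe sets. After quantile normalization, which gives every array the same distribution, Cxcl2 was still 3.09 higher in GFP- cells. It was at 8.10 and 8.77 on the arrays of replicate 5 and at 4.15 to 6.44 on the others. Tnf was 1.55, Trem1 1.14 and Itgam 0.85 higher on that scale, while Cxcr2 was 0.205 and Csf3r 1.12 lower. Unlike Cxcl2, these 3 higher genes overlapped between replicate 5 and the others. Tnf was at 6.725 and 6.959 on replicate 5, where the others reached 6.873. Trem1 was at 8.4 and 8.748, where the others reached 9.038. Itgam was at 11.443 and 12.1, where the others reached 11.621. The arrays of replicate 5 share a scale that differs from the rest, and what else they share was not tested.

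The upstream windows of the 2 dim cytokine genes are shown because, before quantile normalization, both were highest on the GFP- arrays of replicate 5. For Tnf these were low signals, at 8.17 on odor GFP- 5, under the brightest background control of that array at 8.66. On vehicle GFP- 5 Tnf was at 7.79, just above that control at 7.64. Read from the same RefSeq source, Cxcl2 is at chr5:90903649-90903898 on the plus strand and Tnf at chr17:35202008-35202257 on the minus strand. Capitals mark TATAAA, TTNNGNAA and the NF-kB consensus, the binding motif of the transcription factor that drives many inflammatory genes.
Cxcl2: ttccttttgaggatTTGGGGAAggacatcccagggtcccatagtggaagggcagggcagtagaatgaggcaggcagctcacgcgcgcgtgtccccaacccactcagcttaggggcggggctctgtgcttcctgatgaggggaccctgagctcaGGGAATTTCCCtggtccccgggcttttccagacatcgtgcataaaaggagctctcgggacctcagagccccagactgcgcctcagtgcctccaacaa
Tnf: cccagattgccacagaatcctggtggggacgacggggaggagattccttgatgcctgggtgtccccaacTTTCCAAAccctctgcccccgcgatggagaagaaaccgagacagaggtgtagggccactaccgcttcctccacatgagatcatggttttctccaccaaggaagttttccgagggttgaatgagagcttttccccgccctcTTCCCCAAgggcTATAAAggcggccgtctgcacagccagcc
The Cxcl2 window holds 1 match to TTNNGNAA and overlapping matches to the NF-kB consensus on both strands, and the Tnf window holds TATAAA and 2 matches to TTNNGNAA. The NF-kB consensus was found in 7.25% of all windows and in those of 2 of the 10 genes, Cxcl2 and Csf3r. TGANTCA, the AP-1 site, was found in 6.75% of all windows and in none of the 10, and AGGAAG, the core bound by ETS factors such as PU.1, in 29.5% of all windows and in 7 of the 10, overlapping the NF-kB match of Csf3r. Nothing about binding follows from a match or from its lack.

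Across the 10 GFP- arrays the genes did not all rise and fall together, which is given here as a description. The correlation of each gene with the mean of the other 9 was 0.92 for Cxcr2, 0.89 for Trem1, 0.86 for Itgam and 0.84 for Cxcl2. It was 0.76 for Tnf, 0.75 for Il1b, 0.59 for Csf3r and 0.48 for Retnlg, but -0.22 for S100a8 and for S100a9. All these values are over arrays that share the scale difference of replicate 5. Over the 8 arrays of replicates 1 to 4 the correlation was 0.82 for Cxcr2, 0.74 for Retnlg, 0.72 for Trem1, 0.70 for Cxcl2 and 0.66 for Csf3r. There it was 0.57 for Itgam, 0.46 for Il1b, 0.38 for Tnf, 0.34 for S100a8 and -0.12 for S100a9. The array vehicle GFP- 1 held the highest S100a8 and S100a9 signals of all 20, at 18.43 and 17.74, and at once the lowest GFP- signals of Cxcr2, Il1b, Tnf and Cxcl2, at 7.76, 9.50, 4.39 and 4.48. The correlations were not computed without this array, so how far they rest on it is not known. Over all 20 arrays, where the sort dominates, the probe sets most like the mean of the 10 genes were Lilrb4a (r = 0.993), an inhibitory receptor of myeloid cells, Mrgpra2a (0.992), Emp3 (0.991), Plbd1 (0.991) and Nfam1 (0.990). Over the 10 GFP- arrays they were Zkscan6 (0.975), Mrpl33 (0.970), Cd244a (0.966), Bid (0.960) and Ddx55 (0.957), and no gene was in both sets. Over the 8 GFP- arrays of replicates 1 to 4 the most alike were Dennd3 (0.949), Zkscan6 (0.939), 9030612E09Rik (0.933), Il7r (0.928) and Ddx55 (0.928). Mrpl33, Cd244a and Bid were thus among them only with replicate 5 included.

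**Figure D3:**
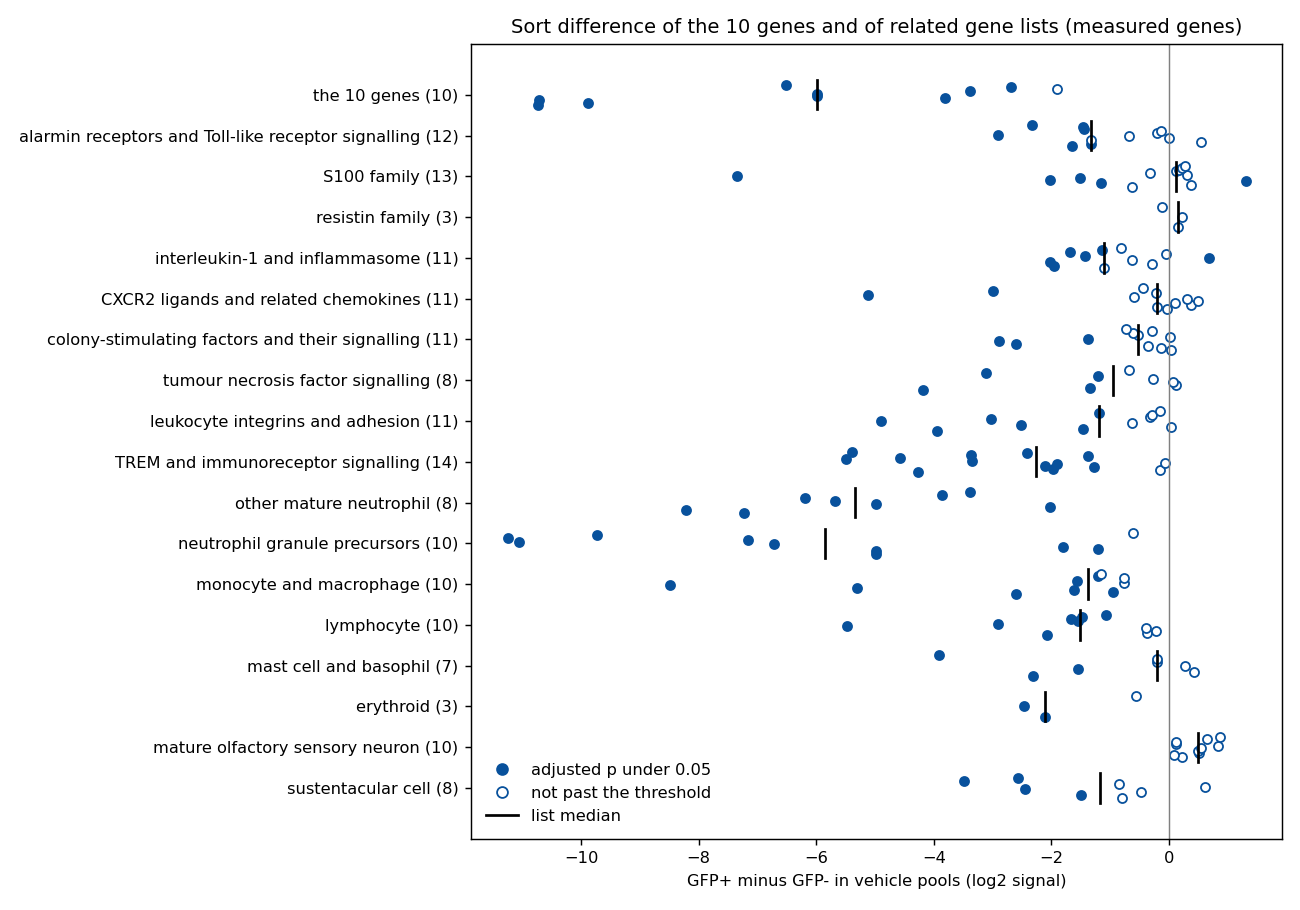
Change GFP+ minus GFP- in vehicle pools (log2 signal) of the 10 genes and of 17 related lists, 1 point per measured gene with the number measured in brackets. Filled points passed the test and black bars are list medians. The medians of the 10 genes (-5.99), of other mature neutrophil genes (-5.34) and of granule precursor genes (-5.85) lie far left of the others, and that of mature olfactory sensory neuron genes is at 0.50.

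Markers of blood cells were set beside these results to check the name of the gene set. These lists too were chosen with earlier results of these data known, so they are no independent check. Of 12 other mature neutrophil markers 8 were measured, and all 8 fell in both conditions, such as the collagenase gene Mmp8 at -7.52 in odor pools and -8.22 in vehicle pools and the gelatinase gene Mmp9 at -6.36 in odor pools and -7.22 in vehicle pools. Ly6g, Fpr1, Fpr2 and Slpi were not analysed here. The mean signal of the 8 measured markers ranged from 9.45 to 11.56 over odor GFP- arrays and 9.92 to 11.55 over vehicle GFP- arrays. Of the 10 granule genes that neutrophil precursors transcribe 9 fell in both, such as Lcn2 at -11.00 in odor pools and -11.24 in vehicle pools and Ngp at -10.50 in odor pools and -11.06 in vehicle pools, so transcripts of precursors and of mature cells were in the same fraction. Several of the 10 genes are also expressed by monocytes, of whose 10 measured markers 6 fell in odor pools and 7 in vehicle pools. Ly6c2, a surface protein of inflammatory monocytes, was at -8.40 in odor pools and -8.49 in vehicle pools, and Ccr2, their chemokine receptor, at -5.80 in odor pools and -5.30 in vehicle pools. Of the genes that tissue macrophages express, Mrc1 fell by 1.44 in odor pools and by 1.21 in vehicle pools. Cx3cr1 fell by 1.62 in odor pools and by 1.61 in vehicle pools, and Adgre1 passed in both conditions as well. C1qb fell in vehicle pools, at -1.56, and did not pass in odor pools, at -1.25, and C1qa and C1qc passed in neither.

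Among lymphocyte markers 4 of 10 measured fell in odor pools and 7 in vehicle pools, with Cd79a, part of the B cell receptor, at -5.02 in odor pools and -5.47 in vehicle pools. Of mast cell and basophil markers 3 of 7 fell in each condition, namely Kit, Cpa3 and Mcpt8, and of erythroid markers 2 of 3 in each. Of the genes listed as sustentacular cell markers 2 of 8 fell in odor pools and 4 of 8 in vehicle pools. Those called in both conditions were Slc2a3 and Krt18, and whether other cells held their transcripts was not tested. Cyp2g1 passed in neither, at -0.92 in odor pools and -0.81 in vehicle pools. The mean signal of the monocyte and macrophage markers was 4.98 to 5.44 over odor GFP+ arrays, 7.20 to 8.69 over odor GFP- arrays, 5.08 to 5.80 over vehicle GFP+ arrays and 7.53 to 8.43 over vehicle GFP- arrays. For the lymphocyte markers it was 4.85 to 5.36, 5.81 to 7.73, 4.46 to 5.31 and 5.90 to 7.35 in the same order of groups, and for the sustentacular markers 6.55 to 8.86, 8.20 to 10.47, 7.37 to 8.36 and 8.51 to 9.66. The part of each of these cell types in the signals of the 10 genes was not tested.

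The second question was whether the smoke odor changed these genes. In GFP- cells all 10 were lower on average in odor pools than in vehicle pools, by 0.31 to 1.01 on the log2 scale with a median change of -0.74, where 47.1% of all probe sets had a change below 0 and their median was 0.02. The median of the 10 genes was -1.04 without odor replicate 5 and -0.31 without vehicle replicate 5, so these arrays of the distinct scale moved it in opposite directions. The median of all probe sets moved as well, to -0.17 and 0.21. Relative to it the 10 genes were at -0.87 and -0.52. None of the 10 genes passed the test by limma, as was so for all probe sets (0%). Only 0.135% of all probe sets had an unadjusted p under 0.05, far below the share that this limit gives with no effect. The spread in this fit includes the scale of the replicate 5 arrays, so a lack of calls does not show a lack of change. Of the 10 genes 1 had an unadjusted p under 0.05. That gene was Retnlg, with 15.2 ± 0.54 in odor GFP- cells and 16.21 ± 0.61 in vehicle GFP- cells (SD, n = 5 each), a change of -1.01 with a 95% interval from -1.83 to -0.19 (unadjusted p = 0.0202, adjusted p = 1 by limma). The labels state no pairing of odor with vehicle pools, so setting them side by side by number is arbitrary. Retnlg was lower in 4 of the 5 same-numbered comparisons, and the groups overlapped, as they did for all 10 genes. Within replicates 1 to 4 the Retnlg change was -1.15, and within replicate 5 it was -0.44. It was -1.46 without the pools of the 3 least correlated arrays. Several other lists were also on the lower side in odor GFP- cells, with no gene past the test. A change below 0 was seen in 8 of 8 other mature neutrophil markers (median -0.55) and 12 of 14 genes of TREM and immunoreceptor signalling (median -0.48). It was seen in 9 of 10 monocyte and macrophage markers (median -0.245) and 6 of 10 granule precursor genes (median -0.13). Lymphocyte markers were lower in 8 of 10 (median -0.30) and tumour necrosis factor signalling in 7 of 8 (median -0.28). Interleukin 1 and the inflammasome were lower in 9 of 11 (median -0.25) and the S100 family in 9 of 13 (median -0.21). The lower side was thus not particular to neutrophil and myeloid genes. Lists near an even split were leukocyte integrins and adhesion (6 of 11, median -0.10) and colony-stimulating factors and their signalling (6 of 11, median -0.03). In the resistin family 0 of 3 were below 0. All lists were read on the same arrays and their genes may vary together, so counts of signs are not replicates. Of the mature olfactory sensory neuron genes 1 of 10 was below 0 (median 0.20). The part of these cell types in the result was not tested.

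The alarmin genes were lower by amounts within the spread between pools. S100a8 was at 16.45 ± 0.73 in odor GFP- cells and 17.32 ± 1.00 in vehicle GFP- cells (SD, n = 5 each), a change of -0.88 with an interval from -1.99 to 0.23. S100a9 changed by -0.75, with an interval from -1.94 to 0.44. In the comparison of number 2 both were higher in the odor sample, by 1.35 and 1.29. In that of number 1 the changes were -2.40 and -2.56, so the sign turned with the samples compared. These comparisons used odor GFP- 2 and vehicle GFP- 1, both among the 3 least correlated arrays. Without vehicle replicate 1 the S100a8 change was -0.60 and the S100a9 change -0.32. Intervals of the other 7 genes also included 0, from -2.87 to 2.02 for Cxcl2 and from -1.81 to 0.30 for Csf3r. Changes of several-fold in either direction are thus not excluded for the dimmest genes at this number of arrays. For brighter genes the intervals reached down to -1.99 for S100a8, -1.94 for S100a9 and -2.15 for Itgam. Decreases of that size on the log2 scale are not excluded for them either.

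In GFP+ cells 5 of the 10 changes between odor and vehicle were positive and 5 negative, from -0.40 for Csf3r to 0.35 for Tnf, and none passed the test or had an unadjusted p under 0.05, which 0.275% of all probe sets had. All of these signals were near background, and the share of 0.275% is likewise below what the limit gives with no effect. The difference between the sort effects, odor pools minus vehicle pools, was above 0 for all 10 genes with a median of 0.60, where 51.2% of all probe sets were above 0. That median was 1.07 without the pools of the 3 least correlated arrays and 0.885 without odor replicate 5. None passed the test by limma, and Retnlg alone had an unadjusted p under 0.05 (difference 1.01, 95% interval 0.06 to 1.96, unadjusted p = 0.0389, adjusted p = 1), against 1.21% of all probe sets. This difference uses the same GFP- arrays as the comparison of odor with vehicle, so it is no second line of evidence. A smaller gap between the fractions in odor pools and a lower GFP- signal in odor pools are here the same values seen from another side.

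**Figure D4:**
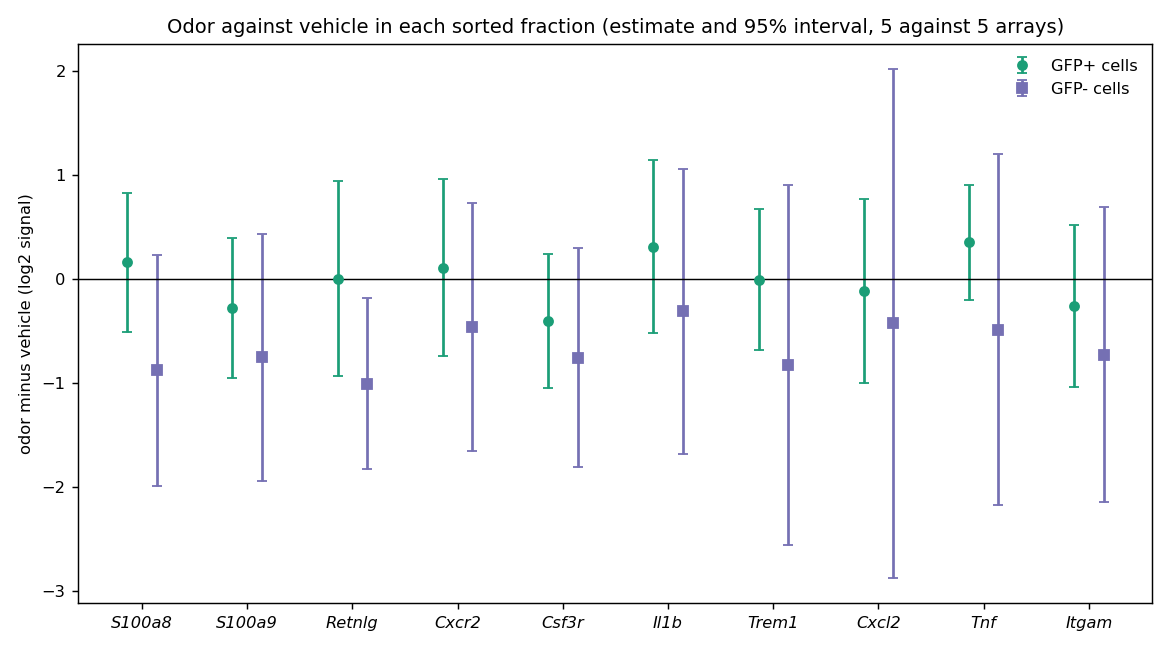
Odor minus vehicle in log2 signal for the 10 genes in GFP+ cells (circles) and GFP- cells (squares), with 95% intervals from limma over 5 against 5 arrays. All 10 squares lie below 0, at -0.31 to -1.01, and only the interval of Retnlg, -1.83 to -0.19, leaves 0 out. The circles lie on either side of 0.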

How the data were processed

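RNA of 20 sorted samples was measured on Clariom S arrays from 50 to 100 ng of total RNA. Per the submitters' processing notes, Affymetrix Expression Console made the deposited values. For its version, background correction and normalization the sources used here give nothing. By their range the authors' deposited values are on a log scale, taken as log2, and entered the tests unchanged. Of 28846 rows 6640 controls were left out and 22206 gene probe sets kept, dim ones included. The platform annotation gave 1 gene symbol for 19572 of them and none for 2634, and all 19572 were found by Entrez ID in the RefSeq table of GRCm38.p6. The files hold no detection calls.

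Tests used limma 3.58.1 in R 4.3.3 (lmFit, eBayes) with Benjamini-Hochberg adjustment over all 22206 probe sets at 0.05, and every adjusted p is from these fits. GFP+ minus GFP- differences of the 10 pools gave the sort effects and their difference. Odor was compared with vehicle on 10 samples per fraction without a block. Pairing of fractions follows from the labels, where 30 mice make 10 pools of 3. Same-numbered fractions correlated in their deviations at 0.22 to 0.81 in odor pools and at -0.32 to 0.80 in vehicle pools. Same-numbered odor and vehicle samples correlated at 0.16 to 0.86 in GFP+ cells, all above the limit of 0.1 (though number 1 was at -0.049 over replicates 1 to 4 alone), and at -0.38 to 0.84 in GFP- cells. P-values measure the spread between these pools, and without a block this spread includes the scale of the replicate 5 arrays.

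The members, the gene lists and the naming rule were chosen with earlier results of these data known. The rule names the 10 genes, S100a5 and Omp, up to 4 genes per list by size among those past the threshold, up to 2 partners that did not pass, and the 5 probe sets of highest correlation with the mean of the 10 genes. Mrc1, Cx3cr1, Adgre1, C1qa, C1qb, C1qc, Cxcl5, Ppbp, Prtn3, Ctsg, Cebpe and Cyp2g1 were named beyond it after their values were seen. Motifs were searched in the 250 bases before each start. The alternatives tried were centring on array medians, quantile normalization, a filter on the dimmest 25%, an intensity trend, a term for or omission of replicate 5, omission of the pools of the 3 least correlated arrays, the block, and omission of each pool. The code was tested on simulated data.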

Additional observations from a re-analysis of the deposited data

Results flagged for a closer look

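The 40 sets of 5 samples, 10 genes in 4 groups, were checked for a single sample far from the other 4, which chance alone gives in about 1 of 20 sets, and 3 were found, all in odor GFP- cells. S100a9 was at 16.69 in odor GFP- replicate 2, where the other 4 samples were at 14.74 to 15.18. Among the arrays of replicates 1 to 4, that array was also one of the 3 that correlated least with their groups. Cxcl2 was at 9.52 in odor GFP- replicate 5, where the others were at 4.62 to 5.64. Tnf was at 8.17 in the same sample, where the others were at 4.63 to 5.23, yet it was under the brightest background control of that array, at 8.66. Vehicle GFP- replicate 5 was likewise the highest of its group for Cxcl2 and Tnf, at 10.14 and 7.79.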

How the results depend on the processing

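With the fractions unpaired (no replicate block), 1050 probe sets were called in odor pools, 206 higher and 844 lower, and 1198 in vehicle pools, 219 higher and 979 lower, against 1752 and 2024 in the paired fit, and 8 and 9 of the 10 genes were called. Leaving out 1 pool gave 1296 to 2127 probe sets in odor pools and 1532 to 2316 in vehicle pools, with 8 to 9 and 9 to 10 of the 10 genes. Centring each array on its median moved the median of all probe sets to 0.29 in odor pools and 0.33 in vehicle pools and the calls to 807 higher and 1055 lower and to 1169 higher and 1211 lower, while the median of the 10 genes relative to all stayed at -5.58 and -6.08. Apart from Tnf and Cxcl2, the 8 other genes kept their sort calls in all alternatives run. Tnf has no value without the dimmest 25% of probe sets, being among them. Between odor and vehicle no gene and no probe set was called under any alternative, the replicate block included (0 in each fraction). Signs that turned were of uncalled changes. In GFP+ cells these were Trem1 with quantile normalization (0.004), Retnlg with centring (-0.013) and, without the pools of the 3 least correlated arrays, S100a8 (-0.094), Retnlg (-0.632) and Cxcl2 (0.032). Leaving out 1 sample gave ranges there of -0.108 to 0.440 for Cxcr2, -0.163 to 0.163 for Trem1, -0.299 to 0.276 for Retnlg and -0.355 to 0.154 for Cxcl2. In GFP- cells the ranges were -0.788 to 0.055 for Il1b and -1.307 to 0.499 for Cxcl2, and for the difference of the sort effects -0.008 to 0.791 for S100a9, -0.022 to 0.671 for Csf3r and -0.345 to 0.952 for Cxcl2. The cause was not tested. Signal near background limits all GFP+ values and those of Cxcl2 and Tnf in GFP- cells.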
